A study of Mus musculus with 24 samples.

Results

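Mouse splenic B cells taken 24 h after in vitro activation were compared with naive splenic B cells. The members are 6 of the 24 libraries of the series, 3 titled as 24 h in vitro activated and 3 titled as naive, chosen by title alone. All 24 libraries come from the spleen of Balb/c mice. RNA was extracted from bead-purified, antibody-stained and sorted cells, and stranded mRNA libraries were sequenced as paired reads of 75 bases. The labels name no stimulus, culture medium, animal, culture or age for either group, so the replicates may be technical. A p-value reflects no more than how much the deposited values of these libraries vary. The same 24 h libraries were also set against 3 libraries of cells 12 h after in vitro activation and 3 of in vivo activated B cells, and values at 4 h are given beside them. The other libraries of the series, of germinal center cells, enter only the shared estimate of the spread and the filter on low values.

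A naive B cell is a small, quiescent cell that circulates between blood and lymphoid follicles. Antigen, T-cell help or microbial ligands start a program in which transcription factors induced within minutes give way to cell growth, with more ribosomes, nucleotides and lipids, and then to DNA synthesis and division. Quiescence factors such as KLF2 and FOXO1 hold the resting state and drive the receptors for homing and egress, so they and those receptors are usually lost together. Proteins of the BCL2 family set whether the activated cell survives.

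Levels are given as deposited, in log2 units that behave like CPM, reads of a gene scaled to a fixed library total, so 0 stands for about 1 CPM and a difference of 1 for a 2-fold change. They give a share of a library, and a change in the total RNA per cell cannot be seen in them. In bulk samples, fewer cells of a type and less RNA per cell cannot be told apart. Of the 23420 genes in the files, 11885 had a value of 0 or more in at least 3 of the 24 libraries and were tested with limma (n = 3 libraries a group). After ±, a difference has its standard error and a level its SD (n = 3). The depth of the libraries is unknown. Each of the 6 libraries held between 10675 and 10708 genes at 1 CPM or more. The deposited values have nearly the same distribution in every library, so these counts say little about the libraries. Replicates correlated across genes at 0.992 to 0.994, against 0.821 to 0.836 between the 24 h and the naive libraries. Genes are not independent replicates, and these correlations only describe the libraries.

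Defining B-cell genes were present in both groups. Cd79a, a signalling chain of the B-cell receptor, had 9.16, 9.22 and 9.23 at 24 h, against 11.48, 11.25 and 11.38 in naive cells. The 9 B-cell markers summed to 5370 to 5580 CPM in the 24 h libraries, against 24800 to 25400 CPM in naive libraries, and 9 of 9 fell. Markers of other cells were low and mostly lower still at 24 h. Those of NK cells summed to 3.69 to 6.7 CPM in the 24 h libraries, against 54.2 to 93.7 CPM in naive libraries. Erythroid markers summed to 1.28 to 1.96 CPM in the 24 h libraries, against 92 to 102 CPM in naive libraries. Macrophage and monocyte markers summed to 23.8 to 26.8 CPM in the 24 h libraries, against 51.6 to 58.8 CPM in naive libraries, dendritic cell markers to 36 to 39.3 CPM in the 24 h libraries, against 67.4 to 70.1 CPM in naive libraries, neutrophil markers to 9.55 to 15.2 CPM in the 24 h libraries, against 26.2 to 37.1 CPM in naive libraries and stromal markers to 30.9 to 36.9 CPM in the 24 h libraries, against 265 to 307 CPM in naive libraries, the last mostly from Pecam1. Platelet markers summed to 8.26 to 9.35 CPM in the 24 h libraries, against 192 to 197 CPM in naive libraries, nearly all from Itgb3. T-cell markers went the other way, at 191 to 212 CPM in the 24 h libraries, against 53.7 to 62.2 CPM in naive libraries, mostly from the kinase gene Lck, while Cd3e and Cd28 fell. Hba-a1 and Hba-a2 were at the floor (under -5 log2) in both groups. Gene segments of immunoglobulins and T-cell receptors are not among the symbols of the files, so their expression was not analysed here. The part of other cells in the differences below was not tested.

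Most genes measured differed between the groups. At an adjusted p under 0.05, 5018 genes were higher and 5056 lower at 24 h than in naive cells, together 10074 of 11885 (84.8%; 42.2% higher and 42.5% lower). At least 2-fold changes were seen in 5547 genes (46.7%), 2704 higher (22.8%) and 2843 lower (23.9%). At least 8-fold changes were seen in 486 genes that rose and 516 that fell, and at least 32-fold changes in 104 and 97. In 10307 genes (86.7%) the libraries of both groups did not overlap, with 43.1% higher and 43.6% lower at 24 h. Counts of list members given below stand against these shares, and a list median stands against -0.009 log2 over all tested genes.

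The largest rise among well expressed genes was that of Ccl22 (chr8:94745590-94751699, plus strand), which encodes a chemokine that attracts T cells through CCR4. Its values were 8.04, 7.91 and 8.07 at 24 h, against -1.28, -1.6 and -1.67 in naive cells, a log2 fold change of 9.53 ± 0.48 (SE, adjusted p = 6.07e-13). Tnfsf14 encodes the TNF family ligand LIGHT and had 5.36, 5.54 and 5.51 at 24 h, against -3.78, -2.1 and -4.0 in naive cells, with a log2 fold change of 8.76 ± 0.38 (SE, adjusted p = 3.11e-16), which was 9.36 without naive replicate 2. Pdcd1 (chr1:94038305-94052553, minus strand) encodes the inhibitory receptor PD-1 and had 6.76, 6.82 and 6.65 at 24 h, against -0.96, -1.19 and -1.28 in naive cells (log2 fold change 7.88 ± 0.24, SE, adjusted p = 4.72e-19). On the linear scale Ccl22 averaged 257 CPM at 24 h and 0.351 CPM in naive cells, Tnfsf14 44.4 CPM at 24 h and 0.123 CPM in naive cells and Pdcd1 107 CPM at 24 h and 0.455 CPM in naive cells. These 3 genes were under 1 CPM in every naive library. They did not overlap between the groups, which the naming rule required of all 12 largest rises. Also among the 12 largest rises were Mcm10 and Lrr1, of which the first loads replication proteins onto DNA, with log2 fold changes of 6.3 ± 0.08 and 7.23 ± 0.37. Bcat1, a transaminase of branched-chain amino acids, rose by 6.28 ± 0.11, the nucleotide hydrolase gene Dnph1 by 6.58 ± 0.28 and the repressor gene Bcl6b by 6.11 ± 0.58. Tacc2, Clhc1, Phyhip and Phldb1 rose by 6.35 ± 0.3, 6.35 ± 0.59, 6.14 ± 0.36 and 6.12 ± 0.59. Naive means of Lrr1, Dnph1, Bcl6b, Tacc2, Clhc1, Phyhip and Phldb1 were under 1 CPM, from 0.139 CPM for Lrr1 to 0.534 CPM for Tacc2. The size of their rises is therefore uncertain.

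The largest falls joined genes of red cells with genes of signalling. Slc4a1, the anion exchanger of red cells, had -6.12, -6.07 and -4.24 at 24 h, against 4.9, 5.05 and 4.83 in naive cells. The water channel gene Aqp1 had -5.98, -6.36 and -6.2 at 24 h, against 3.55, 3.14 and 3.27 in naive cells, and Gzma, a granzyme of NK and cytotoxic T cells, -5.75, -6.03 and -3.39 at 24 h, against 4.16, 3.7 and 2.72 in naive cells. These 3 genes have a 24 h mean under -5 log2, so no fold is given. Slc4a1 and Gzma are themselves members of the erythroid and NK marker sums above. Aqp1 and Ermap are in neither sum and were lower at 24 h, as those sums were. Plk2 (chr13:110395046-110400844, plus strand), a kinase gene induced by serum and by p53, had 0.91, 1.27 and 1.56 at 24 h, against 9.08, 8.64 and 8.53 in naive cells, a log2 fold change of -7.51 ± 0.2 (SE, adjusted p = 1.54e-18). Irs2 (chr8:10984681-11008458, minus strand), an adaptor of insulin and IL-4 receptors that FOXO factors induce, averaged 3.23 ± 0.21 at 24 h and 10.06 ± 0.16 in naive cells (log2 fold change -6.84 ± 0.17, SE, adjusted p = 7.72e-19). Hes1, a target of Notch, fell by 6.5 ± 0.12, the MAP kinase phosphatase gene Dusp8 by 6.6 ± 0.39 and Osgin1, an oxidative stress gene, by 6.98 ± 0.29. Thbd (thrombomodulin) and Dmpk fell by 7.63 ± 0.51 and 6.55 ± 0.38. The transcription factor gene Maf had -2.65, -2.26 and -5.95 at 24 h, against 3.51, 2.98 and 3.64 in naive cells, and Ermap, a gene of red cell membranes, -5.79, -3.42 and -2.53 at 24 h, against 3.91, 3.58 and 3.36 in naive cells. Each has 1 library at 24 h under -5 log2, so their falls are given without a fold. The naive libraries did not overlap with the 24 h ones in any of these genes, which the naming rule required.

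The largest differences on the linear scale were found among abundant genes. Eef1a1, a translation elongation factor, averaged 17600 CPM at 24 h and 9220 CPM in naive cells, the chaperone gene Hsp90ab1 8490 CPM at 24 h and 1930 CPM in naive cells and Ncl, encoding the nucleolar protein nucleolin, 5410 CPM at 24 h and 762 CPM in naive cells. Tubb5, a tubulin, averaged 3390 CPM at 24 h and 462 CPM in naive cells, Hspa8 3000 CPM at 24 h and 638 CPM in naive cells and the poly(A)-binding protein gene Pabpc1 3360 CPM at 24 h and 1330 CPM in naive cells. In the other direction, Cd74, the invariant chain of MHC class II, averaged 2490 CPM at 24 h and 17600 CPM in naive cells and H2-Aa, a class II alpha chain, 1350 CPM at 24 h and 7150 CPM in naive cells. Btg1, an antiproliferative gene, averaged 785 CPM at 24 h and 4040 CPM in naive cells, and the kinase gene Stk17b 322 CPM at 24 h and 2480 CPM in naive cells. Eef1a1 had the highest value of all tested genes in each 24 h library, and Cd74 in each naive library. Eef1a1 averaged 14.1 ± 0.09 at 24 h, at 12 h, at 4 h and in vivo alike, and Cd74 averaged 14.1 ± 0.02 in naive cells. With nearly the same distribution in every library, the top value is nearly fixed. How far the CPM of these top genes reflects their abundance therefore cannot be told. Pseudogenes that resemble Eef1a1 and other abundant genes may have taken some of their reads.

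**Figure D1:**
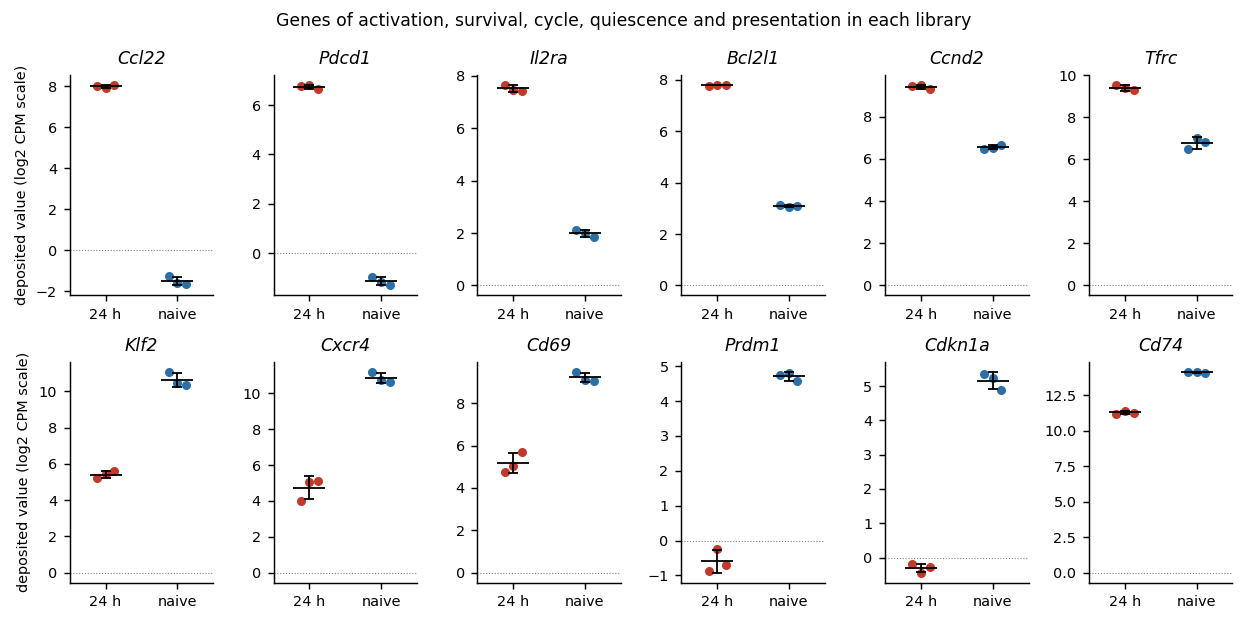
Deposited log2 values of 12 genes in each library, 24 h on the left (red) and naive on the right (blue). Bars give the mean and SD of 3 libraries and the dotted line marks 1 CPM. The top row holds 6 genes whose 24 h libraries all lie above the naive ones, Ccl22 by 9.53 log2, and the bottom row 6 genes whose 24 h libraries all lie below, Cxcr4 with a difference of -6.14 log2.

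Immediate-early genes were far lower at 24 h than in the naive cells. Of 30 tested, 26 fell and 1 rose, with a median log2 difference of -3.13. Their summed level was 2360 to 2670 CPM in the 24 h libraries, against 15900 to 19400 CPM in naive libraries, which is 0.252% of the library at 24 h against 1.75% in naive cells. Fos, a subunit of AP-1, had 4.75, 5.3 and 5.6 at 24 h, against 9.32, 8.64 and 8.59 in naive cells. Jun had 4.83, 4.68 and 4.63 at 24 h, against 9.61, 9.02 and 8.98 in naive cells, a log2 fold change of -4.49 ± 0.32 (SE, adjusted p = 1.54e-10). Nr4a1 (chr15:101254269-101274795, plus strand), an orphan nuclear receptor gene induced by antigen receptor signalling, had 7.34, 7.63 and 7.89 at 24 h, against 11.6, 11.69 and 11.6 in naive cells (log2 fold change -4.01 ± 0.15, SE, adjusted p = 5.24e-16). In each of these 3 genes the 24 h libraries lay below the naive ones without overlap. Dusp5, a phosphatase of ERK, fell by 5.49 ± 0.13 and Jund, another AP-1 subunit, by 2.6 ± 0.07. The member that rose was Egr2, a zinc finger factor, with 7.01, 6.93 and 7.13 at 24 h, against 6.37, 6.19 and 5.97 in naive cells (log2 fold change 0.85 ± 0.21, SE, adjusted p = 0.00118). Its paralog Egr1 fell by 0.94 ± 0.24. Fosl1, Egr3 and Ier3 did not pass the test. The median difference of the list from naive cells was -1.12 at 4 h, -2.84 at 12 h and -3.13 at 24 h. The naive libraries therefore held the highest list median of the 4 time points. The labels give no time between tissue and lysis, and its part in these values was not tested.

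Quiescence genes fell with few exceptions. Of 25 tested, 21 fell and 3 rose (median -2.19). Klf2 (chr8:72319033-72321656, plus strand), a factor that keeps lymphocytes quiescent and circulating, had 5.22, 5.42 and 5.58 at 24 h, against 11.07, 10.47 and 10.37 in naive cells, a log2 fold change of -5.23 ± 0.21 (SE, adjusted p = 9.41e-15). Tsc22d3, which encodes the glucocorticoid-induced protein GILZ, had 4.11, 4.42 and 4.6 at 24 h, against 10.37, 9.96 and 9.96 in naive cells (log2 fold change -5.72 ± 0.13, SE, adjusted p = 5.16e-20). Foxo1, a factor held out of the nucleus by PI3K signalling, had 6.27, 6.42 and 6.24 at 24 h, against 9.24, 9.26 and 9.22 in naive cells (log2 fold change -2.93 ± 0.05, SE, adjusted p = 6.84e-23). The naive level was 37.6 times the 24 h level for Klf2, 52.6 times for Tsc22d3 and 7.64 times for Foxo1. Txnip, an inhibitor of glucose uptake, fell by 2.57 ± 0.08, Btg1 by 2.36 ± 0.07 and Cdkn1b, the CDK inhibitor p27, by 1.21 ± 0.2. The members that rose were Slfn2, Cdkn2c and Rbl1. Slfn2, a Schlafen gene that lymphocytes need to stay quiescent in mice, had 9.23, 9.48 and 9.45 at 24 h, against 6.07, 6.17 and 6.12 in naive cells (log2 fold change 3.27 ± 0.2, SE, adjusted p = 5.64e-12). Cdkn2c, the CDK inhibitor p18, rose by 1.67 ± 0.15 and Rbl1, the pocket protein p107, by 1.53 ± 0.06. The pocket protein gene Rbl2 (p130), by contrast, fell by 1.31 ± 0.08.

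In the MYC network, 8 of 11 tested members fell and 2 rose (median -1.38). Myc, a transcription factor of growth that pairs with MAX, had 8.0, 7.96 and 8.08 at 24 h, against 9.4, 9.19 and 9.17 in naive cells, a log2 fold change of -1.24 ± 0.1 (SE, adjusted p = 3.81e-11). Its mean was 9.33 at 4 h and 8.56 at 12 h, so Myc RNA at 24 h lay below that of the naive libraries and of the earlier times. The antagonists that bind MAX in its place moved in both directions: Mxd1 fell by 2.98 ± 0.13 and Mxd4 fell by 2.19 ± 0.1, while Mxd3, found in S phase, rose by 2.16 ± 0.2. Max rose by 0.18 ± 0.05.

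Regulators of the activated B cell and the plasma cell were mostly lower, with 18 of 25 down and 5 up (median -1.27). Plasma cell markers, which include Prdm1 and Xbp1, fell in 5 of 7 and summed to 271 to 285 CPM in the 24 h libraries, against 753 to 801 CPM in naive libraries, and their part in this list was not tested. Prdm1 (chr10:44437177-44528501, minus strand), the plasma cell repressor Blimp-1, had -0.86, -0.24 and -0.7 at 24 h, against 4.76, 4.8 and 4.56 in naive cells, a log2 fold change of -5.3 ± 0.19 (SE, adjusted p = 1.46e-17). Irf4, needed for both germinal center and plasma cell fates, had 9.04, 9.01 and 8.78 at 24 h, against 10.24, 10.31 and 10.09 in naive cells (log2 fold change -1.27 ± 0.26, SE, adjusted p = 2.06e-04). Bcl6, the repressor that directs cells to the germinal center fate, had 2.62, 3.0 and 2.68 at 24 h, against 6.76, 6.68 and 6.72 in naive cells (log2 fold change -3.95 ± 0.17, SE, adjusted p = 7.08e-15). The 24 h libraries were the lower group in each of the 3 genes. Pax5, which holds B-cell identity, fell by 1.89 ± 0.09, Ebf1 by 2.4 ± 0.09, Bach2, a repressor of Prdm1, by 1.91 ± 0.11 and the coactivator gene Pou2af1 by 1.87 ± 0.05. Batf, an AP-1 factor that works with IRF4 in class switching, rose, with 5.64, 5.61 and 5.76 at 24 h, against 3.4, 3.18 and 3.1 in naive cells (log2 fold change 2.45 ± 0.1, SE, adjusted p = 1.22e-16). Mef2b rose by 1.53 ± 0.12. Xbp1, the splicing-activated factor of secretory cells, differed by -0.18 ± 0.17 and did not pass the test (adjusted p = 0.339).

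Components of B-cell receptor signalling fell in 20 of 26 cases and rose in 2, with a median of -0.97. The 2 that rose were Cd81 and Btk, and 1 was left without naive replicate 2 or without 24 h replicate 3. Cr2 (chr1:195136811-195176716, minus strand), the complement receptor CD21, had 6.58, 6.52 and 6.46 at 24 h, against 9.97, 10.19 and 10.22 in naive cells, a log2 fold change of -3.61 ± 0.13 (SE, adjusted p = 2.85e-16). Cd79a fell by 2.17 ± 0.06, Syk, the kinase that binds the receptor's signalling chains, by 1.74 ± 0.09 and Rasgrp3, an activator of RAS, by 1.57 ± 0.05. Among inhibitory receptors 12 of 18 fell and 5 rose. Cd22, a sialic acid-binding lectin, fell by 2.27 ± 0.08, and Cd72 and Fcgr2b by 0.48 ± 0.08 and 0.88 ± 0.05. Those that rose most were Pdcd1 and Lag3. Lag3, a receptor for MHC class II, had 4.75, 4.36 and 4.54 at 24 h, against -1.6, -1.13 and -1.43 in naive cells (log2 fold change 5.93 ± 0.33, SE, adjusted p = 7.24e-14). Among NF-kB subunits and inhibitors 17 of 24 fell and 6 rose (median -0.6). Nfkb1 (p105/p50) rose by 1.0 ± 0.05 and the inhibitor gene Nfkbie by 1.91 ± 0.07. Tnfaip3, the ubiquitin-editing inhibitor A20, had 7.02, 6.75 and 6.76 at 24 h, against 9.73, 9.46 and 9.49 in naive cells (log2 fold change -2.72 ± 0.14, SE, adjusted p = 7.63e-14), and Birc3 fell by 2.69 ± 0.06.

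Of 23 tested activation markers, 9 rose and 12 fell, against 42.2% higher and 42.5% lower over all tested genes. Il2ra (chr2:11642807-11693193, plus strand), the alpha chain of the IL-2 receptor (CD25), had 7.67, 7.47 and 7.43 at 24 h, against 2.11, 2.02 and 1.84 in naive cells, a log2 fold change of 5.54 ± 0.25 (SE, adjusted p = 1.10e-14). Tfrc, the transferrin receptor CD71, had 9.55, 9.38 and 9.27 at 24 h, against 6.47, 7.01 and 6.82 in naive cells (log2 fold change 2.64 ± 0.14, SE, adjusted p = 1.76e-13). Icam1, an adhesion ligand, and Cd44, a hyaluronan receptor, rose by 2.16 ± 0.06 and 1.81 ± 0.08. Cd69 (chr6:129267325-129275436, minus strand), an early marker that holds lymphocytes in tissue by binding S1PR1, went the other way with 4.76, 5.05 and 5.7 at 24 h, against 9.48, 9.12 and 9.05 in naive cells (log2 fold change -4.04 ± 0.22, SE, adjusted p = 8.88e-13). Cd86, a costimulatory ligand of CD28, had 4.94, 4.87 and 4.86 at 24 h, against 6.23, 6.18 and 6.16 in naive cells (log2 fold change -1.3 ± 0.07, SE, adjusted p = 7.51e-14). Its mean was 8.86 at 4 h and 5.37 at 12 h, so the naive and 24 h means both lay under the 4 h mean. Icosl, the ligand of ICOS, fell by 4.18 ± 0.14.

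Receptors that guide B cells through lymphoid tissue were mostly lower. Of 21 tested, 18 fell, 17 of them at least 2-fold, with a median of -2.23. Cxcr4 (chr1:128588199-128592293, minus strand), the receptor of CXCL12, had 3.99, 5.05 and 5.14 at 24 h, against 11.2, 10.75 and 10.65 in naive cells, a log2 fold change of -6.14 ± 0.33 (SE, adjusted p = 2.22e-12). S1pr1 (chr3:115710433-115715072, minus strand), the egress receptor for sphingosine 1-phosphate, had 4.21, 4.79 and 4.71 at 24 h, against 9.56, 9.41 and 9.16 in naive cells (log2 fold change -4.81 ± 0.39, SE, adjusted p = 1.34e-09). Ccr7, which leads to the T zone, had 6.92, 6.98 and 6.97 at 24 h, against 10.66, 10.32 and 10.01 in naive cells (log2 fold change -3.37 ± 0.25, SE, adjusted p = 1.67e-10). None of the 3 showed overlap, although the 24 h libraries spread more for Cxcr4 than the naive ones. The follicle receptor gene Cxcr5 fell by 2.41 ± 0.23, Gpr183 (EBI2) by 1.78 ± 0.14, the cannabinoid receptor gene Cnr2 by 4.38 ± 0.15 and P2ry10 by 3.73 ± 0.1. The member that rose was the integrin chain gene Itgb1, by 1.22 ± 0.06, and Cxcr3 and Itgal did not pass the test. Of G-protein feedback genes 10 of 14 fell and 3 rose. Rgs1, which shortens chemokine receptor signals, fell by 3.02 ± 0.24 and Rgs2 by 1.42 ± 0.09, while Rgs13 and Rgs10 rose by 2.0 ± 0.14 and 1.12 ± 0.08. Resting follicular and marginal zone surface genes fell in 16 of 22 and rose in 2, Ms4a4c by 0.68 ± 0.18 and Tnfrsf13c by 0.24 ± 0.05. Fcer2a (CD23) fell by 2.31 ± 0.12, Cd55 by 3.91 ± 0.1 and Cd93 by 4.2 ± 0.34. The 10 marginal zone markers fell in all 10 cases and summed to 488 to 519 CPM in the 24 h libraries, against 2990 to 3160 CPM in naive libraries. Cr2 and Mzb1 belong to both that list and another described here.

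Cytokine receptor genes were mostly lower, with 19 of 31 down and 5 up. Il4ra, the IL-4 receptor chain, fell by 1.99 ± 0.08, Ifngr1 by 2.43 ± 0.06 and Tgfbr2 by 1.94 ± 0.07. Beside Il2ra, Tnfrsf8 (CD30) rose, with 0.77, 0.77 and 0.31 at 24 h, against -3.99, -5.13 and -2.02 in naive cells, and Tnfrsf13c, the BAFF receptor, is on this list too. Il21r had 7.55, 7.59 and 7.54 at 24 h, against 7.66, 7.59 and 7.43 in naive cells, and its difference did not pass the test (adjusted p = 0.995). Of 19 tested cytokine and chemokine genes, out of 28 on the list, 9 rose and 8 fell. Next to Ccl22, Tnfsf9, the ligand of 4-1BB, rose by 5.66 ± 0.34 (6.26 without naive replicate 3) and Mif by 2.1 ± 0.07. Ltb and Lta, which form lymphotoxin and organise lymphoid tissue, fell by 4.53 ± 0.13 and 4.2 ± 0.16, and Il10 by 2.91 ± 0.54. Among Toll-like receptors and partners 12 of 18 fell and 2 rose (1 without naive replicate 1 or without any of the 24 h libraries in turn). Tlr9, a sensor of DNA, fell by 1.98 ± 0.16 and its chaperone gene Unc93b1 by 1.32 ± 0.07, while the adaptor gene Myd88 rose by 1.16 ± 0.04.

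Antigen presentation fell as a group. Of 22 tested genes 21 were lower, 16 at least 2-fold, with a median of -2.19. They made up 0.816% of the library at 24 h and 4.32% in naive cells. Cd74 had 11.2, 11.36 and 11.27 at 24 h, against 14.12, 14.12 and 14.08 in naive cells, a log2 fold change of -2.82 ± 0.09 (SE, adjusted p = 8.53e-18). Ciita (chr16:10480059-10528418, plus strand), the coactivator that drives class II genes, had 5.26, 5.36 and 5.22 at 24 h, against 8.61, 8.48 and 8.57 in naive cells (log2 fold change -3.27 ± 0.09, SE, adjusted p = 3.14e-19). H2-Ab1, a class II beta chain, had 9.21, 9.38 and 9.4 at 24 h, against 12.08, 11.8 and 11.95 in naive cells (log2 fold change -2.61 ± 0.08, SE, adjusted p = 3.08e-18). H2-DMb2, which helps to load peptide, fell by 4.12 ± 0.08, although reads of H2-DMb1 and H2-DMb2 may have been split between near-identical copies. The protease gene Ctss fell by 1.98 ± 0.04. Psmb8, an immunoproteasome subunit, was the member that rose, by 0.26 ± 0.05. The list's median difference from naive cells was -0.83 at 4 h and -1.49 at 12 h, so the fall went on to 24 h. Class II promoters carry a conserved Y box, which holds the reverse of CCAAT and binds NF-Y. The 150 bases before the start of H2-Aa (minus strand, chr17:34287824-34287973) and H2-Eb1 (plus strand, chr17:34305717-34305866) are shown to place it, from the RefSeq promoter table (GRCm38.p6), 5′ to 3′, with CCAAT or ATTGG in capitals.
H2-Aa: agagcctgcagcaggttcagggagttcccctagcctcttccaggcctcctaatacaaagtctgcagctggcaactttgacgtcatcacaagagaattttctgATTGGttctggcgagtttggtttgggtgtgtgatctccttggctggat
H2-Eb1: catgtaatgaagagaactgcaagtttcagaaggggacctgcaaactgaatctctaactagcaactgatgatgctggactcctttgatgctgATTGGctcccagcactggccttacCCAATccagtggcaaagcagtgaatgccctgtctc
The match to ATTGG lies 48 bases before the H2-Aa start and 59 before that of H2-Eb1, which has a second match on the other strand. In the 250 bases before their starts, 13 of 16 members with a promoter in the table held CCAAT on either strand (81.2%), against 40.9% of the 8869 tested genes with one. A match is a description of the letters, not a bound site.

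Anti-apoptotic genes moved in opposite directions. Of 7 tested anti-apoptotic members 5 rose and 1 fell. Bcl2l1 (chr2:152780668-152831728, minus strand), which encodes BCL-XL, had 7.78, 7.81 and 7.81 at 24 h, against 3.12, 3.07 and 3.1 in naive cells, a log2 fold change of 4.7 ± 0.09 (SE, adjusted p = 3.74e-22). Bcl2 (chr1:106538178-106714274, minus strand) had 5.53, 5.43 and 5.32 at 24 h, against 7.18, 7.29 and 7.18 in naive cells (log2 fold change -1.79 ± 0.11, SE, adjusted p = 3.13e-13). The groups did not overlap in either gene, and the gap was far wider than the SD of 0.02 at 24 h and 0.02 in naive cells for Bcl2l1. Bcl2a1d and Bcl2a1b, encoding A1, rose by 3.03 ± 0.11 and 1.7 ± 0.1, but these copies are near-identical and their split is uncertain. Mcl1 differed by 0.15 ± 0.07 (adjusted p = 0.0336), a call that was lost without naive replicate 1 or 3 and without 24 h replicate 2 or 3. Pro-apoptotic members and caspases rose in 7 of 17 and fell in 8. Among BH3-only genes, which trigger death by binding the protective members, Bmf had 4.82, 4.89 and 4.79 at 24 h, against 7.43, 7.42 and 7.2 in naive cells (log2 fold change -2.52 ± 0.12, SE, adjusted p = 3.08e-15). Pmaip1 (NOXA) fell by 2.28 ± 0.17, Bid rose by 2.22 ± 0.09, and Bcl2l11 (BIM) differed by 0.07 ± 0.21 (adjusted p = 0.754). The caspase gene Casp6 fell by 1.1 ± 0.08. Fas, the death receptor, rose by 0.58 ± 0.12.

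Among p53 targets and CDK inhibitors 14 of 20 fell and 6 rose. Cdkn1a (chr17:29090976-29100727, plus strand), the CDK inhibitor p21, had -0.2, -0.44 and -0.28 at 24 h, against 5.36, 5.24 and 4.87 in naive cells, a log2 fold change of -5.47 ± 0.26 (SE, adjusted p = 3.83e-15). It averaged 0.809 CPM at 24 h and 36.1 CPM in naive cells, and every 24 h library was under 1 CPM. Gadd45a, a stress gene that slows the cycle, fell by 3.19 ± 0.12, and Aen, a nuclease gene, rose by 1.83 ± 0.06.

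Genes of growth rose in nearly every list. The 36 ribosome biogenesis genes tested all rose, 32 at least 2-fold, with a median of 1.98. Their summed level was 18300 to 20000 CPM in the 24 h libraries, against 4040 to 4330 CPM in naive libraries. Ncl (chr1:86344719-86359400, minus strand) had 12.23, 12.33 and 12.62 at 24 h, against 9.41, 9.65 and 9.65 in naive cells, a log2 fold change of 2.82 ± 0.09 (SE, adjusted p = 1.98e-17). Npm1, encoding nucleophosmin, had 12.02, 11.95 and 12.02 at 24 h, against 9.23, 9.45 and 9.46 in naive cells (log2 fold change 2.62 ± 0.06, SE, adjusted p = 3.27e-21), and Polr1b, a subunit of RNA polymerase I, 6.94, 7.03 and 6.99 at 24 h, against 4.35, 4.28 and 4.53 in naive cells (log2 fold change 2.6 ± 0.1, SE, adjusted p = 2.48e-17). Fbl (fibrillarin) rose by 1.7 ± 0.06 and Dkc1 (dyskerin) by 2.48 ± 0.06. The list stood at a median of 2.04 above naive at 4 h, 2.35 at 12 h and 1.98 at 24 h, so most of the rise was already there at 4 h. Cytosolic ribosomal protein genes moved little: 27 of 41 rose, 1 at least 2-fold, and 4 fell, with a median of 0.22. Rps2 rose by 1.0 ± 0.05 and Rplp1 by 0.69 ± 0.04. Many ribosomal protein genes have processed copies that may share reads. Translation initiation factors rose in 29 of 32 and fell in 3 (median 1.37), among them Eif4a1 by 1.72 ± 0.06 and the cap-binding gene Eif4e by 1.67 ± 0.07, while Eif4a2 fell by 0.84 ± 0.08 and Eif1 by 0.98 ± 0.05. Of 23 cytosolic aminoacyl-tRNA synthetases, which charge tRNAs with amino acids, 22 rose (median 1.52) and Vars did not pass the test. Tars, Yars and Wars, for threonine, tyrosine and tryptophan, rose by 2.03 ± 0.07, 2.04 ± 0.07 and 0.7 ± 0.05.

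Enzymes that make serine, one-carbon units and nucleotides rose in 31 of 32 cases, with a median of 2.18. Impdh1 was the member that did not pass. Mthfd2, a mitochondrial folate enzyme, had 7.13, 7.23 and 7.24 at 24 h, against 4.01, 4.08 and 4.12 in naive cells, a log2 fold change of 3.13 ± 0.09 (SE, adjusted p = 8.13e-20). Paics, of purine synthesis, had 9.22, 9.21 and 9.21 at 24 h, against 6.4, 6.4 and 6.42 in naive cells (log2 fold change 2.81 ± 0.05, SE, adjusted p = 5.37e-23). Rrm2, the small subunit of ribonucleotide reductase, rose by 4.62 ± 0.08, Cad, of pyrimidine synthesis, by 1.93 ± 0.08, Shmt2 by 2.25 ± 0.08 and Phgdh, the entry to serine synthesis, by 1.26 ± 0.07. Nutrient transporters were mixed, with 12 of 21 up and 6 down. The folate carrier gene Slc19a1 rose by 3.16 ± 0.1, the glutamine carrier gene Slc1a5 by 1.88 ± 0.05 and Slc7a5, the light chain of the LAT1 transporter, by 1.98 ± 0.1. The glucose transporter genes Slc2a1 and Slc2a3 fell by 1.67 ± 0.15 and 1.97 ± 0.06, and Slc3a2, the heavy chain partner of Slc7a5, by 0.45 ± 0.11.

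Glycolysis and pentose phosphate genes rose in 18 of 24 and fell in 4, with a median of 0.96. Hk2, the hexokinase of growing cells, had 6.08, 6.2 and 6.11 at 24 h, against 3.78, 3.88 and 3.78 in naive cells, a log2 fold change of 2.32 ± 0.11 (SE, adjusted p = 1.75e-15), while Hk1 fell by 0.46 ± 0.09. Pfkp, a phosphofructokinase, rose by 2.73 ± 0.06, Ldha by 2.24 ± 0.06 and Pkm by 1.44 ± 0.06. Pdk1, which holds pyruvate back from mitochondria, fell by 0.84 ± 0.1. TCA cycle genes rose in 24 of 27 with a median of 0.63. Respiratory chain and ATP synthase genes rose in 45 of 48 and fell in 2, 1 without naive replicate 1 or without 24 h replicate 1, (median 0.8). Cycs (cytochrome c) rose by 1.62 ± 0.08 and Atp5g3, of the ATP synthase rotor, by 1.81 ± 0.05. All 38 mitochondrial ribosomal protein genes tested rose, 31 at least 2-fold, with a median of 1.25. Mrpl12 had 7.56, 7.64 and 7.77 at 24 h, against 5.43, 5.41 and 5.45 in naive cells (log2 fold change 2.23 ± 0.07, SE, adjusted p = 3.75e-19). Mitochondrial and cytosolic ribosome genes thus differed in how far they moved, by medians of 1.25 and 0.22, in the same libraries.

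Cholesterol synthesis and uptake genes rose in 25 of 28, with a median of 1.76. Sqle, which makes the epoxide of squalene, had 7.39, 7.44 and 7.53 at 24 h, against 3.9, 4.05 and 3.96 in naive cells, a log2 fold change of 3.48 ± 0.07 (SE, adjusted p = 1.88e-22). The genes that fell were the sterol exporters Abca1 and Abcg1, targets of LXR. Abcg1 had 3.38, 3.35 and 3.42 at 24 h, against 8.05, 7.98 and 7.88 in naive cells (log2 fold change -4.59 ± 0.14, SE, adjusted p = 7.47e-19), and Abca1 fell by 3.74 ± 0.16. Most synthesis genes were thus higher and export genes lower at 24 h. The list's median difference from naive was 1.71 at 4 h, 0.79 at 12 h and 1.76 at 24 h, with the 12 h value the lowest of the 3 times. Fatty acid genes rose in 22 of 29 and fell in 7. The desaturase genes Fads2 and Fads1 rose by 5.72 ± 0.17 and 4.84 ± 0.08, and Scd2 by 2.35 ± 0.14, while Scd1 fell by 1.57 ± 0.06. Cpt1a, which lets fatty acids into mitochondria, fell by 2.8 ± 0.06 and Fasn rose by 0.97 ± 0.1.

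Chaperone and proteasome genes rose in 38 of 42 and fell in 3, with a median of 1.54, and made up 3.07% of the library at 24 h against 0.865% in naive cells. Cct3 and Tcp1, subunits of the TRiC folding complex, rose by 1.61 ± 0.06 and 1.87 ± 0.05, and Hspd1, the mitochondrial HSP60, by 3.33 ± 0.07. The heat shock gene Dnajb1 fell by 0.5 ± 0.07, and Hspa1b differed by -0.51 ± 0.53 (adjusted p = 0.378), or by 0.19 without 24 h replicate 3. Genes of the unfolded protein response were divided, with 13 of 31 up and 11 down (median 0.11). Hspa5 (BiP) differed by -0.05 ± 0.06 (adjusted p = 0.47), P4hb rose by 1.15 ± 0.06, and the stress genes Ppp1r15a and Ddit3 (CHOP) fell by 4.01 ± 0.18 and 2.76 ± 0.2.

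**Figure D2:**
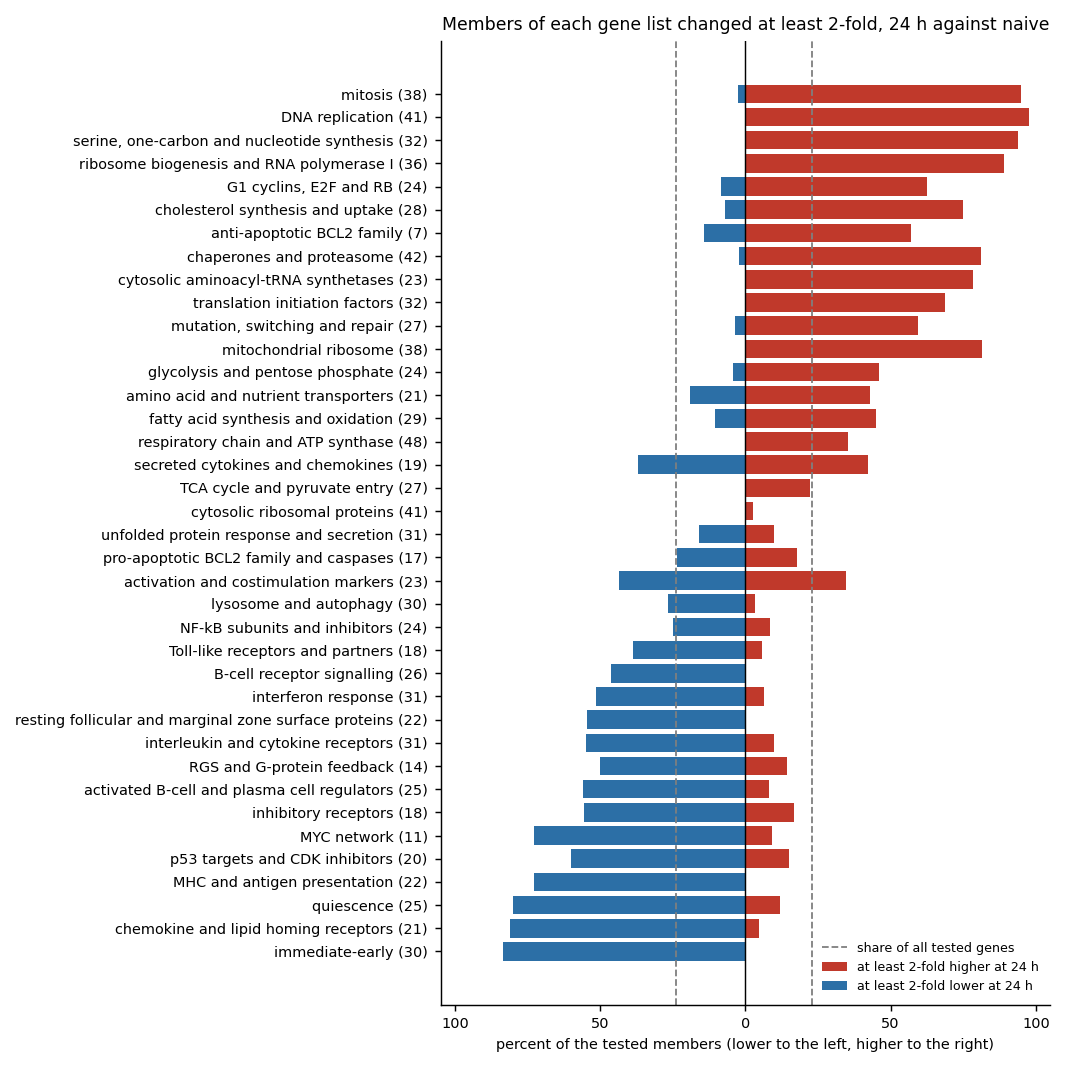
Percent of the tested members of each gene list that changed at least 2-fold at an adjusted p under 0.05, higher at 24 h to the right and lower to the left, with the number tested in brackets and lists ordered by their median. Dashed lines mark 22.8% higher and 23.9% lower over all tested genes. Immediate-early genes stand at the lower end with 25 of 30 down, and DNA replication and mitosis genes at the upper end with 40 of 41 and 36 of 38 up.

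Genes of the cell cycle rose at 24 h. G1 cyclin, E2F and RB family genes rose in 19 of 24 and fell in 5 (median 1.88). Ccnd2 (chr6:127125162-127152193, minus strand), the D cyclin of activated B cells, had 9.47, 9.48 and 9.29 at 24 h, against 6.49, 6.53 and 6.66 in naive cells, a log2 fold change of 2.86 ± 0.15 (SE, adjusted p = 1.05e-13). Ccne1, the cyclin of the G1 to S transition, had 6.7, 6.76 and 6.88 at 24 h, against 2.09, 2.09 and 1.71 in naive cells (log2 fold change 4.82 ± 0.11, SE, adjusted p = 4.17e-21). E2f1 had 6.12, 6.22 and 6.24 at 24 h, against 3.62, 3.52 and 3.59 in naive cells (log2 fold change 2.62 ± 0.08, SE, adjusted p = 9.19e-19). Ccnd3 rose by 0.62 ± 0.07, Cdk4 by 2.23 ± 0.05, the E2F partner gene Tfdp1 by 3.18 ± 0.06 and Cks1b by 4.1 ± 0.09, while Ccnd1 fell by 2.58 ± 0.23.

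DNA replication genes rose in 40 of 41 cases, 40 at least 2-fold, with a median of 3.07. Their summed level was 12200 to 12400 CPM in the 24 h libraries, against 1740 to 1750 CPM in naive libraries. Mcm5 (chr8:75109569-75128439, plus strand), a subunit of the helicase that opens origins, had 9.67, 9.77 and 9.75 at 24 h, against 6.23, 6.24 and 6.25 in naive cells, a log2 fold change of 3.49 ± 0.05 (SE, adjusted p = 2.14e-24). Cdc6, which loads that helicase, had 6.46, 6.53 and 6.6 at 24 h, against 1.33, 1.72 and 1.51 in naive cells (log2 fold change 5.01 ± 0.16, SE, adjusted p = 5.17e-18). Uhrf1, which carries DNA methylation through replication, had 9.37, 9.37 and 9.36 at 24 h, against 4.0, 4.15 and 4.05 in naive cells (log2 fold change 5.3 ± 0.05, SE, adjusted p = 1.24e-27). No library of one group overlapped with the other in these genes. Mcm6 rose by 4.48 ± 0.05 and Pcna, the sliding clamp, by 2.91 ± 0.06. The gene that fell was Cdt1, a loader that is destroyed in S phase, by 0.51 ± 0.08.

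Promoters of 3 of these genes are shown as examples of E2F letters, which 12 of 33 replication genes and 0 of 31 mitosis genes held. Each is the 150 bases before a start in the RefSeq table (GRCm38.p6), 5′ to 3′ on the gene's strand, for Mcm5 at chr8:75109359-75109508 (plus), Mcm6 at chr1:128359706-128359855 (minus) and Uhrf1 at chr17:56303187-56303336 (plus). Capitals mark the E2F letters TTCCCGC or TTTGGCG and the NF-Y letters CCAAT, on either strand, and no 2 matches overlap.
Mcm5: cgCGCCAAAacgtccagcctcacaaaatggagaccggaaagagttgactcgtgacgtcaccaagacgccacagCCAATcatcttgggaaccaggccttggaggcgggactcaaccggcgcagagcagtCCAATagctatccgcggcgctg
Mcm6: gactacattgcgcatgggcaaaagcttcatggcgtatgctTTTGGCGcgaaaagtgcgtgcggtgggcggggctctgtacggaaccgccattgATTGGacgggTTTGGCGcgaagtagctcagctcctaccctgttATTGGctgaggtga
Uhrf1: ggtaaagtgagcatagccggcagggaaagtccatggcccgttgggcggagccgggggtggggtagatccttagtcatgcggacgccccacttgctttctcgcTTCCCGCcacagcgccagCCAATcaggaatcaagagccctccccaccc
Mcm5 held 1 E2F match, 148 bases before its start, Mcm6 held 2, at 110 and 47 bases, and Uhrf1 held 1, 48 bases before. Uhrf1 has a second start in the table, whose 150 bases (chr17:56304163-56304312, plus strand) hold CCAAT at 150 and 107 bases and no E2F letters, and it is not shown. Over the 250 bases before their starts, 12 of 33 replication genes in the table held E2F letters (36.4%), against 10.8% of tested genes and 13.7% of those at least 2-fold higher at 24 h. CCAAT was found in 23 of the 33 (69.7%), against 40.9% of tested genes, and the CHR letters TTTGAA in 6 (18.2%), against 12.6%.

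Mitosis genes rose in 36 of 38 cases, 36 at least 2-fold, with a median of 3.4. Mki67 (chr7:135689784-135716361, minus strand), which coats mitotic chromosomes, had 8.34, 8.48 and 8.36 at 24 h, against 4.93, 5.08 and 5.23 in naive cells, a log2 fold change of 3.32 ± 0.11 (SE, adjusted p = 9.42e-18). Ccna2, cyclin A2, had 7.63, 7.67 and 7.66 at 24 h, against 2.73, 2.76 and 2.95 in naive cells (log2 fold change 4.84 ± 0.1, SE, adjusted p = 3.74e-22). Plk1, a mitotic kinase, had 4.86, 4.88 and 5.16 at 24 h, against 1.04, 1.15 and 1.07 in naive cells (log2 fold change 3.88 ± 0.16, SE, adjusted p = 1.57e-16). Bub1b, of the spindle checkpoint, rose by 4.83 ± 0.09, Ccnb1 by 3.73 ± 0.17 and Aurkb by 3.27 ± 0.09. Cdc25b, a phosphatase that activates CDK1, fell by 2.01 ± 0.06, and Cenpa did not pass the test. The RefSeq table holds promoters of 31 of the 38. None of the 31 held the E2F letters, 9 held TTTGAA, the CHR letters bound by the DREAM and MMB complexes (29.0%, against 12.6% of tested genes), and 24 held CCAAT (77.4%), which was thus common in both lists. Mki67 (minus strand, chr7:135716380-135716529) has CHR letters and Ccnb1 (minus strand, chr13:100786487-100786636) a pair of CCAAT letters in the 150 bases before the start. Capitals mark TTTGAA and CCAAT in these sequences, 5′ to 3′, and the matches do not overlap.
Mki67: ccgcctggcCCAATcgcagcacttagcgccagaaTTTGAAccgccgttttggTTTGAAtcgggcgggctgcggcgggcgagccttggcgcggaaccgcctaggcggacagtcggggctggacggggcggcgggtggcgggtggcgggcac
Ccnb1: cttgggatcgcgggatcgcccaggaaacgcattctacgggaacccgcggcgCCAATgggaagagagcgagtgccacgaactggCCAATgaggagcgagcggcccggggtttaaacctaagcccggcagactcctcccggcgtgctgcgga
A promoter without these letters in the window says nothing about which factor acts there.

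Genes of mutation, switching and repair rose in 21 of 27 and fell in 2 (median 1.31). Ung, which removes uracil from DNA, had 7.46, 7.48 and 7.56 at 24 h, against 3.72, 3.47 and 3.64 in naive cells, a log2 fold change of 3.89 ± 0.08 (SE, adjusted p = 7.79e-22). Prkdc, of end joining, fell by 0.61 ± 0.11. Brca1 rose by 2.85 ± 0.06 and the endonuclease gene Apex1 by 2.49 ± 0.07.

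Interferon response genes fell in 26 of 31 and rose in 4 (median -1.01). Irf7, a master factor of type I interferon, had 1.23, 1.79 and 1.15 at 24 h, against 5.09, 5.04 and 4.96 in naive cells, a log2 fold change of -3.64 ± 0.14 (SE, adjusted p = 3.72e-17), and Irf1 fell by 2.79 ± 0.08. Ifih1, the RNA sensor MDA5, rose by 2.24 ± 0.18 and the GTPase gene Ifi47 by 1.38 ± 0.08. Lysosome and autophagy genes fell in 19 of 30 and rose in 8 (median -0.51). Map1lc3a fell by 2.6 ± 0.11 and Tfeb, a regulator of lysosome genes, by 1.07 ± 0.08, while Gusb rose by 1.61 ± 0.09 and Ctsz by 0.67 ± 0.05.

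**Figure D3:**
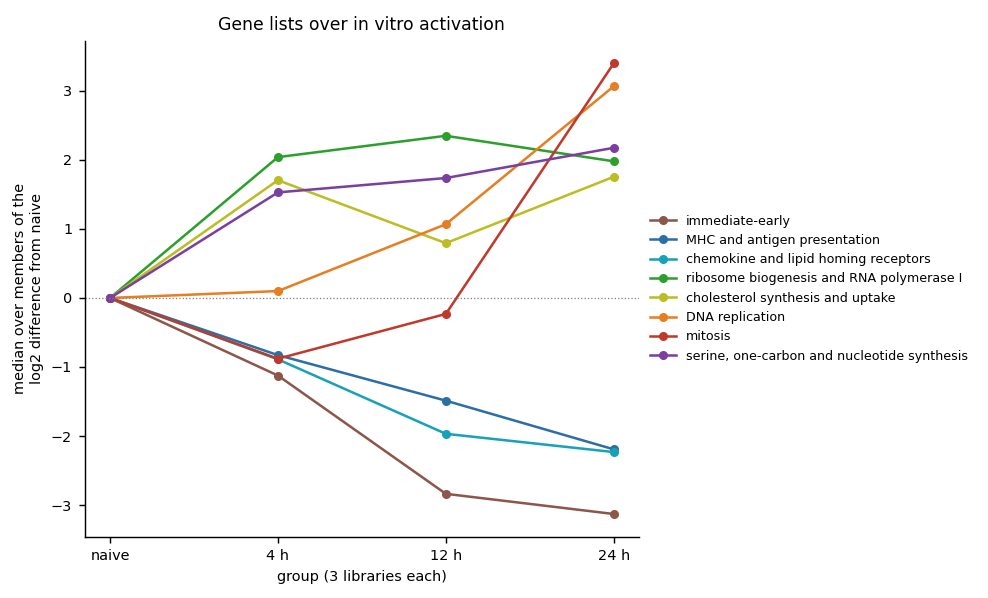
Median over the tested members of 8 gene lists of the log2 difference from the naive mean, for naive, 4 h, 12 h and 24 h libraries (3 libraries each). Ribosome biogenesis genes stand at 2.04 above naive at 4 h and 1.98 at 24 h, while mitosis genes stand at -0.88 at 4 h, -0.23 at 12 h and 3.40 at 24 h.

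The 24 h libraries were then set against the 12 h libraries to see how the later time differed from the earlier. Of the tested genes 2679 (22.5%) were higher and 4133 (34.8%) lower at 24 h than at 12 h, together 6812 (57.3%). At least 2-fold differences were seen in 832 genes up (7.0%) and 617 down (5.19%). DNA replication genes were higher in 41 of 41 (median 1.84) and mitosis genes in 37 of 38 (median 3.67), against a median of -0.098 over all tested genes. Mki67 averaged 8.39 ± 0.07 at 24 h and 2.78 ± 0.11 at 12 h, a difference of 5.62 ± 0.11, adjusted p = 7.95e-21. Ccna2 averaged 7.65 ± 0.02 at 24 h and 1.98 ± 0.11 at 12 h (5.68 ± 0.1, adjusted p = 1.16e-22), and Rrm2 8.27 ± 0.06 at 24 h and 2.83 ± 0.1 at 12 h (5.44 ± 0.08, adjusted p = 2.13e-23). At 12 h Mki67 and Ccna2 were below their naive means of 5.08 and 2.81, a difference that was not tested. Nusap1 and Iqgap3, of spindle and cytokinesis, were higher at 24 h by 5.58 ± 0.14 and 5.57 ± 0.24. Lpl, lipoprotein lipase, was also among the largest rises, at 4.37 ± 0.24 at 24 h and -1.85 ± 0.32 at 12 h (6.22 ± 0.44, adjusted p = 4.58e-11). Cholesterol genes were higher in 23 of 28 (median 0.9). Ribosome biogenesis genes were lower in 24 of 36 (median -0.28). MHC and presentation genes were lower in 18 of 22. Cxcr4 averaged 4.73 ± 0.64 at 24 h and 7.75 ± 0.28 at 12 h (-3.02 ± 0.33, adjusted p = 4.37e-07), and Rgs16 0.56 ± 0.16 at 24 h and 3.69 ± 0.12 at 12 h (-3.13 ± 0.31, adjusted p = 2.43e-08). Lower at 24 h were also the histone demethylase gene Kdm5b, with a log2 difference of -2.27 ± 0.12, Fam160a1 with -2.51 ± 0.2, Plk2 with -2.25 ± 0.2 and Itgb3 with -2.11 ± 0.06. The comparisons with naive and with 12 h cells share the 24 h libraries.

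Against in vivo activated B cells, 4311 genes (36.3%) were higher and 3988 (33.6%) lower in the 24 h in vitro cells, together 8299 (69.8%), and at least 2-fold differences were seen in 1087 higher (9.15%) and 1303 lower (11.0%), together 20.1%. The labels do not say how or for how long the cells were activated in vivo. DNA replication and mitosis genes separated in this comparison. Replication genes were higher in vitro in 37 of 41 (median 0.51), while mitosis genes were lower in 34 of 38 (median -0.97). Mcm6 averaged 10.07 ± 0.02 at 24 h in vitro and 9.12 ± 0.08 in vivo (0.94 ± 0.05, adjusted p = 4.41e-14). Mki67 averaged 8.39 ± 0.07 at 24 h in vitro and 9.33 ± 0.11 in vivo (-0.93 ± 0.11, adjusted p = 1.17e-07), Ccnb1 5.35 ± 0.08 at 24 h in vitro and 6.74 ± 0.04 in vivo (-1.39 ± 0.17, adjusted p = 2.13e-07) and Plk1 4.97 ± 0.17 at 24 h in vitro and 6.56 ± 0.09 in vivo (-1.6 ± 0.16, adjusted p = 5.25e-09). Top2a, counted with the replication genes and also used in mitosis, was one of the 2 replication genes that were lower. The other was Rfc2. Ribosome biogenesis genes were higher in 34 of 36 (median 1.15) and cholesterol genes in 19 of 28. Genes of presentation were lower in 22 of 22 (median -1.38) and homing receptors in 20 of 21 (median -1.56). Genes of the unfolded protein response and secretion were lower in 22 of 31. Plasma cell markers were also lower in 6 of 7, with a sum of 271 to 285 CPM in the 24 h libraries, against 967 to 1060 CPM in in vivo activated libraries. The lists are not separate, since Mzb1, with a log2 difference of -1.86 ± 0.05, belongs to both. The part of plasma cell markers was not tested. Il2ra averaged 7.52 ± 0.12 at 24 h in vitro and 3.08 ± 0.32 in vivo (4.45 ± 0.25, adjusted p = 2.45e-12), Tnfsf14 5.47 ± 0.1 at 24 h in vitro and 0.96 ± 0.25 in vivo (4.51 ± 0.38, adjusted p = 3.18e-10) and Ifitm2 6.59 ± 0.04 at 24 h in vitro and 2.11 ± 0.08 in vivo (4.48 ± 0.22, adjusted p = 1.58e-13). Cxcr3, a receptor for interferon-induced chemokines, averaged 0.01 ± 0.13 at 24 h in vitro and 5.27 ± 0.2 in vivo (-5.27 ± 0.26, adjusted p = 3.44e-14), and Cd36, a fatty acid receptor, 3.96 ± 0.08 at 24 h in vitro and 9.67 ± 0.09 in vivo (-5.71 ± 0.14, adjusted p = 1.05e-18). Cdh17, Itgax (CD11c), the metallothionein gene Mt2 and Rbm47 were lower in vitro, with log2 differences of -5.13 ± 0.19, -5.43 ± 0.24, -6.53 ± 0.37 and -6.1 ± 0.7. Macrophage and monocyte markers summed to 23.8 to 26.8 CPM in the 24 h libraries, against 36.5 to 45.7 CPM in in vivo activated libraries, and erythroid markers to 1.28 to 1.96 CPM in the 24 h libraries, against 14.8 to 20.8 CPM in in vivo activated libraries. The Y-linked genes Ddx3y, Eif2s3y and Kdm5d averaged 4.77, 5.16 and 4.05 at 24 h and were at the floor in the in vivo activated libraries. This difference and the way of activation cannot be told apart in these groups.

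**Figure D4:**
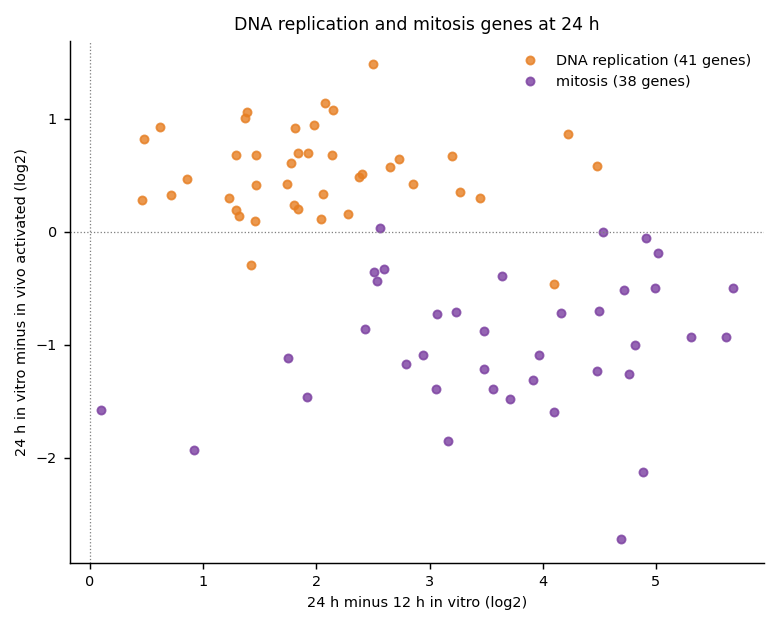
Each point is a DNA replication gene (orange, 41 genes) or a mitosis gene (purple, 38 genes), placed by its log2 difference of 24 h minus 12 h in vitro cells (x axis) and of 24 h in vitro minus in vivo activated cells (y axis). Both axes share the 24 h libraries, so their relation is not read. Replication genes lie mostly above 0 on the y axis (median 0.51) and mitosis genes mostly below it (median -0.97).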

How the data were processed

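Messenger RNA was sequenced from 24 libraries of splenic B cells, of which 3 taken 24 h after in vitro activation and 3 naive ones are compared. The authors deposited 1 log2 value per gene and library, per the labels and the files; the steps behind these values are not given in the sources used here. The submitters' processing notes name FastQC 0.11.5, cutadapt 1.8.3, STAR 2.6.0c, Subread 1.6.2 with featureCounts, limma and the mm10 build. The values have nearly the same distribution in every library, as quantile normalization gives, and gene means hardly differ between replicate numbers, so library effects may have been removed before deposit. If so, the deposited replicates vary less than the libraries did. Standard errors and p-values from the main fit, which has no replicate block, may then be too small. Depth is unknown.

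Genes at 0 log2 or more in at least 3 of 24 libraries were kept (11885 of 23420). limma 3.58.1 in R 4.3.3 fitted 1 mean per group over all 24 libraries with a variance trend and robust moderation. P-values were adjusted by Benjamini-Hochberg over all tested genes, and genes with an adjusted p under 0.05 were called changed. CPM values were taken as 2 to the power of the log2 value. No pseudocount was added. Gene positions are from GENCODE release M21 on GRCm38 (mm10), promoters from RefSeq. Figures were drawn with matplotlib 3.10.9.

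Genes named were the 12 largest changes in each direction with at least 10 CPM in the higher group and no overlap, the 8 largest differences in CPM, key genes of each list with up to 2 more members a direction, and up to 6 genes a direction against 12 h and in vivo cells. Genes named to complete a count of 5 or fewer were chosen after their values were seen. Members and lists were chosen with earlier results of these data known. The fit was tested on simulated data. Alternatives changed the filter, the libraries fitted, the pseudocount, the moderation, the scaling and the replicates. Values of some list members are not reported here.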

Additional observations from a re-analysis of the deposited data

How the results depend on the processing

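The number of genes changed kept within 1.5 times of the reported one under every alternative run for each of the 3 comparisons. Against naive cells it lay between 9591 and 11233, and for changes of at least 2-fold between 4605 and 6860. Leaving out 1 library at a time gave 9826 to 9853 and 5455 to 5561. With a replicate block the counts were 9939 and 5529 against naive cells, 6395 against 12 h cells and 8037 against in vivo activated cells. The labels tie no replicate number to a shared animal or culture, so the block is not read as a pairing. Deviations of same-numbered 24 h and naive libraries correlated at -0.165, -0.111 and -0.125. Gene means of the replicate numbers differed by at most 0.0009 log2, so deviations at a given number nearly cancel over the groups. These correlations therefore cannot show whether libraries were paired. Ccl3 (0.73), counted among the cytokine genes that rose, and Rps6 (0.08), counted among the ribosomal protein genes that rose, lost their call under the block. Il21r, at -0.00, was 0.0 after centring on the median and lay between -0.07 and 0.05 with 1 library left out. Hspa1b, at -0.51, lay between -0.91 without 24 h replicate 1 and 0.19 without 24 h replicate 3. The cause was not tested. With unknown depth no counting error can be given.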
